A study of Mus musculus with 2 samples.

Results

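The vacuolar proton pump subunits, the cathepsins and the Lamps were examined in whole stomachs of mouse embryos. Members were the protein-coding genes whose symbols name a subunit of the V1 or V0 sector of the pump, its accessory subunits Atp6ap1 and Atp6ap2, a cathepsin, or Lamp1, Lamp2 or Lamp3. The rule found 51 of 43346 genes, of which 25 carried pump symbols, 23 were cathepsins and 3 were Lamps. It used no measured value. Total RNA came from stomachs of the strain B6NCrl at embryonic day 15.5, from healthy embryos of both sexes, in 1 group with no second condition. Replicate 1 pooled 78 embryos and replicate 2 pooled 62, so a value is an average over many animals and all cell types of the dissected tissue. The levels below are in TPM, a relative abundance corrected for transcript length, and each gene has 2 values, given for replicate 1 and then replicate 2. Detection required at least 1 TPM in each of the libraries. Markers of other organs were detected as well, with summed levels of 6509 and 8792 TPM for exocrine pancreas and 2237 and 1090 TPM for liver. Their part in the levels below was not tested. In bulk tissue fewer cells of a type and less RNA per cell cannot be told apart.

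The vacuolar proton pump (V-ATPase) is a rotary machine that acidifies lysosomes, endosomes and secretory vesicles. Its cytosolic V1 sector hydrolyses ATP and turns a rotor, and its membrane-bound V0 sector carries protons across the membrane. Cathepsins are proteases that mostly work in the acid interior of the lysosome, and the Lamps are glycoproteins of the lysosomal membrane. Several pump subunits exist as a widely used gene and as paralogs restricted to kidney, bone, brain or testis. Acid secretion into the adult stomach is the work of a different pump, the gastric H+/K+ ATPase of parietal cells.

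The members were sorted by textbook tissue use into 26 broad genes and 24 restricted genes, and Atp6v1fnb, a gene named for its neighbour Atp6v1f, was placed in neither class. These classes were drawn up with earlier results of these data known. All 26 broad genes were detected, with median levels of 108 and 111 TPM. Of these, 14 stood at 100 TPM or more in both libraries. The median protein-coding gene lay at 5.70 and 5.72 TPM, and the median detected one at 17.5 and 17.9 TPM. Of the restricted genes 7 of 24 were detected, 9 had 0 counts in both libraries, and their median was 0.075 and 0.020 TPM. The 24 include the 9 placental cathepsins, of which 0 were detected and 8 had 0 counts in both, and these lower the median. Of the 8 restricted pump genes 3 were detected, with a median of 0.22 and 0.21 TPM. Of the 6 other restricted cathepsins 4 were detected, with a median of 18.2 and 18.7 TPM. In all, 33 of 51 members were detected, against 64.5% of the 21474 protein-coding genes. Across the 33 detected members ranked by mean level, the values of 10 of the 32 neighbouring pairs overlapped between the libraries. In 4 of those 10 pairs the order was still the same within each library, and in the other 6 it changed.

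**Figure D1:**
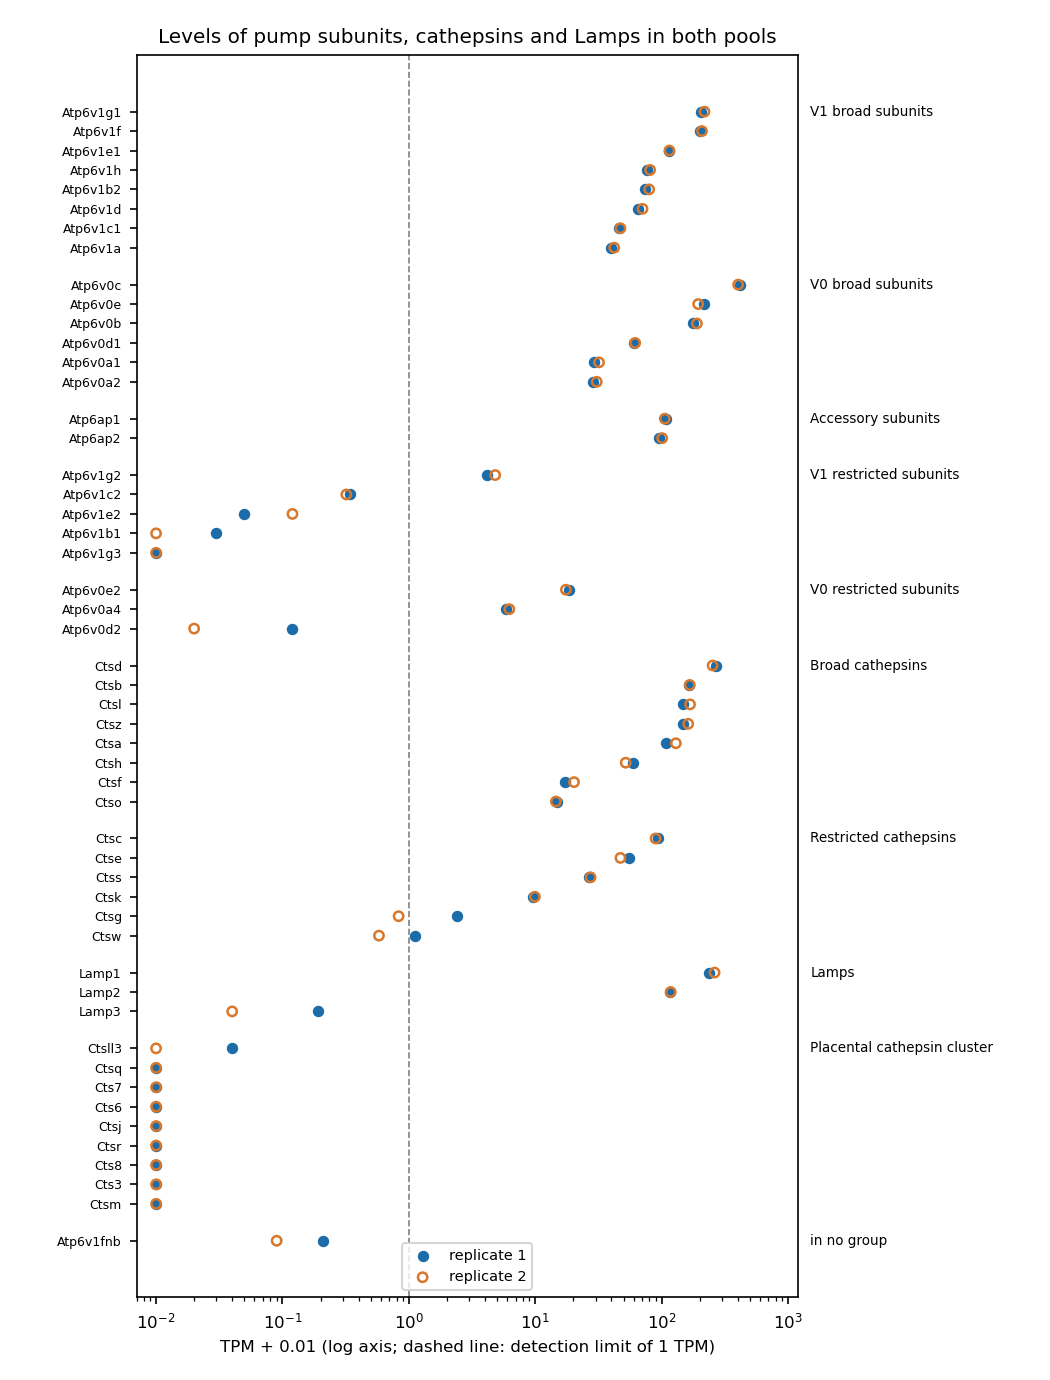
Level of each of the 51 members as TPM + 0.01 on a log axis, with filled points for replicate 1 and open points for replicate 2. All 26 broad genes lie to the right of the dashed detection limit of 1 TPM in both libraries, while 8 of the 9 placental cathepsins lie at the left edge at 0 counts.

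Lysosomal genes are known to share an E-box, the core of the element bound by TFEB and its relatives, close to their start sites. The 300-base RefSeq promoter windows of build GRCm38.p6, from 250 bases before to 50 bases after the start site, were matched for 41 members and searched on both strands. For 32 of these 41 members the bases just after the start site lay in a GENCODE M21 transcript of the gene. The core CACGTG, which reads the same on both strands, was present in 9 of 19 broad genes with a window (47.4%) and in 1 of 21 restricted genes, the placental cathepsin Ctsll3. It was present in 8.09% of all 27025 genes with a window, in 11.2% of detected protein-coding genes and in 13.6% of those at 100 TPM or more. The longer form TCACGTGA, which contains the core, was found in 5 of 19 broad genes (26.3%), and in none of the 21 restricted genes. It was in 1.12% of all genes with a window, in 2.06% of detected protein-coding genes and in 3.07% of those at 100 TPM or more. Another common promoter motif, CCAAT, was in 18 of 41 members (43.9%) and in 41.1% of all genes, so its share in the members lay near that of all genes. These letters describe the windows only, and binding was not measured. No window was matched for Atp6v1b2, Atp6v0d2, Atp6v1h, Ctse, Atp6v0a2, Atp6v1c1, Atp6v1g1, Ctsw, Ctsh and Ctsb.

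The 5 genes with the longer form are shown as 30-base RefSeq stretches, since they include the membrane stalk, the catalytic head and 2 major lysosomal enzymes. Capitals mark TCACGTGA, and each stretch is written in the direction of transcription, at chr8:105566050-105566079 (minus strand), chr17:26676387-26676416 (plus), chr16:44139373-44139402 (minus), chr2:164833749-164833778 (plus), chr2:164833766-164833795 (plus) and chr7:142387908-142387937 (minus), in the order of the lines.
Atp6v0d1: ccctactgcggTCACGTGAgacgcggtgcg
Atp6v0e: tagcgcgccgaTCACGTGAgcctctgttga
Atp6v1a: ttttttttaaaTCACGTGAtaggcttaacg
Ctsa, site 1: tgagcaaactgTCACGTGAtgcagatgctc
Ctsa, site 2: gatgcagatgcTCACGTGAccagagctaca
Ctsd: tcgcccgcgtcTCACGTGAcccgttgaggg

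Lamp1 had 4 cores, more than any other member with a window, and none of them had the longer form. Capitals mark CACGTG, and the stretches lie on the plus strand at chr8:13159088-13159117, chr8:13159104-13159133, chr8:13159121-13159150 and chr8:13159134-13159163, overlapping in part.
Lamp1, site 1: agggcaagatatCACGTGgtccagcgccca
Lamp1, site 2: tggtccagcgccCACGTGatgccgactggc
Lamp1, site 3: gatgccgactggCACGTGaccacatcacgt
Lamp1, site 4: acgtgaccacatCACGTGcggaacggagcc

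**Figure D2:**
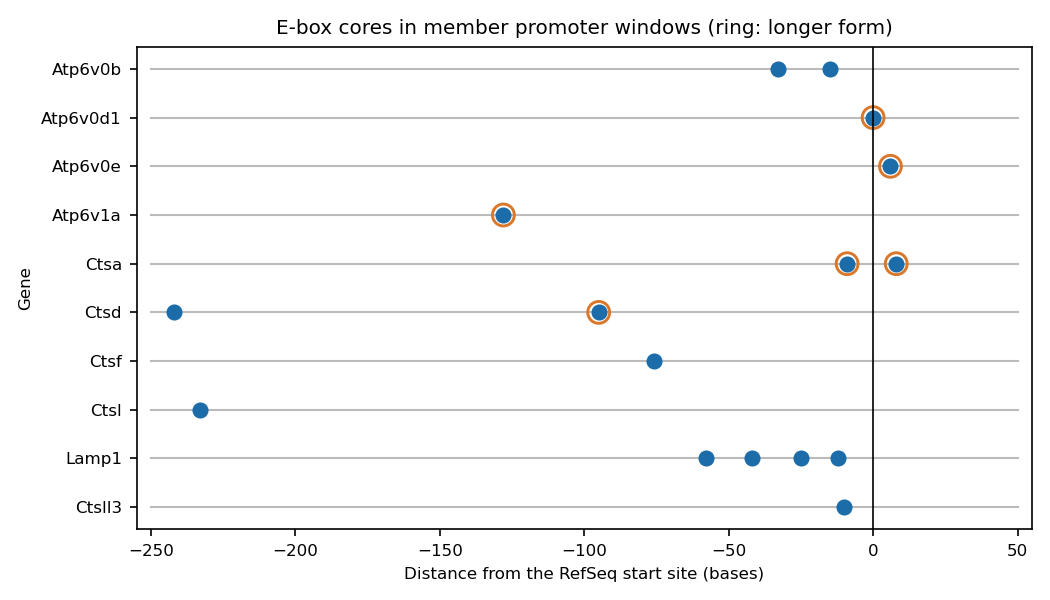
Distance in bases from the RefSeq start site (vertical line at 0) to the middle of each E-box core, for the 10 members that hold the core in the window of 250 bases before to 50 after. Rings mark the longer form, which occurs in 5 genes, and the 4 cores of Lamp1 lie between -58 and -12.

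All 8 broad subunits of the V1 sector were detected. The small stalk subunit gene Atp6v1g1 stood at 203 and 218 TPM, and Atp6v1f, a subunit of the central rotor, at 200.0 and 209 TPM. Atp6v1e1, the partner of G in the peripheral stalks, stood at 115 and 115 TPM. The regulatory subunit gene Atp6v1h was measured at 76.1 and 81.1 TPM, and Atp6v1b2, which with A forms the head, at 73.9 and 79.7 TPM. The rotor subunit gene Atp6v1d followed at 65.3 and 70.6 TPM, and Atp6v1c1, which joins V1 to V0, at 46.2 and 47.2 TPM. Atp6v1a, the catalytic subunit, had the lowest level of the broad V1 genes, at 40.1 and 42.1 TPM. RNA levels of subunits that share 1 complex thus spanned 40.1 to 203 TPM in replicate 1 and 42.1 to 218 TPM in replicate 2.

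In the V0 sector all 6 broad genes were detected as well. Atp6v0c encodes the proteolipid that is repeated around the rotating ring, and it had the highest level of all 51 members, at 420.2 and 403 TPM. The authors' posterior SD of its count was 23.6 and 14.9 counts, and reads were also assigned to a processed pseudogene of it. The related ring subunit gene Atp6v0b stood at 177 and 190.2 TPM, and the small membrane subunit gene Atp6v0e at 217 and 195 TPM. Atp6v0d1, which couples the rotor of V1 to the ring, stood at 60.0 and 61.8 TPM. The lowest were Atp6v0a1 at 29.3 and 31.9 TPM and Atp6v0a2 at 28.4 and 30.7 TPM, 2 of the paralogs of the large subunit a that forms the proton path and directs the pump to its membrane. The values of these 2 genes overlapped between the libraries, with Atp6v0a1 above Atp6v0a2 within each. The accessory subunits, which take part in assembly and targeting of the pump, stood close together, with Atp6ap1 at 109 and 106 TPM and Atp6ap2 at 95.2 and 101 TPM.

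For 6 of the 7 subunits with paralogs the broad gene supplied over 90% of the summed TPM. The broad share was 99.99% for subunit B, 99.3% ± 0.040 for C, 99.9% ± 0.043 for E, 97.9% ± 0.104 for G and 99.9% ± 0.118 for d (SD, n = 2). The kidney-type genes Atp6v1b1 and Atp6v1g3 had 1 and 0 counts in replicate 1 and 0 and 0 in replicate 2. Atp6v1c2, found mainly in kidney and lung, had 14 and 12 counts, or 0.33 and 0.31 TPM. Its locus overlaps Pdia6 on the other strand, a gene with 32928 and 34414 counts, and the strand setting of the counting is not known, so reads of the 2 genes cannot be told apart where they overlap. The testis gene Atp6v1e2 had 1 and 3 counts, and Atp6v0d2, known from osteoclasts and kidney, had 3 and 1. In the intercalated cell and ionocyte marker list none of 6 genes was detected, with a summed level of 1.63 and 1.36 TPM, and the defining genes Foxi1 and Aqp6 had 0 counts. Dmrt2 lay just under the limit at 0.98 and 0.99 TPM (68 and 69 counts). Slc4a9 had 22 and 11 counts, Slc26a4 5 and 15, and Rhcg 5 and 3. The testis germ cell list had 0 of 5 detected. Of the osteoclast list 3 of 7 were detected (Acp5 at 29.9 and 23.3 TPM, Itgb3 at 5.11 and 5.42, Mmp9 at 4.34 and 5.09). Below the limit, the fusion gene Dcstamp had 2 and 0 counts, Oscar 3 and 11, Calcr 16 and 21, and Ocstamp 53 and 34.

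Both brain-enriched paralogs were detected. Atp6v0e2 stood at 18.5 and 17.5 TPM (989 and 939 counts), which left the broad gene Atp6v0e 92.0% ± 0.267 of subunit e (SD, n = 2). By CPM, which is not corrected for length, the broad share of e was 82.4%, since the Atp6v0e2 transcript is longer. Atp6v1g2 stood at 4.17 and 4.81 TPM (184 and 196 counts), and it overlaps Nfkbil1 on the opposite strand (418 and 476 counts). Enteric neuron markers were present in both pools: 9 of 9 were detected, led by Uchl1, Stmn2 and Tubb3, with a summed level of 258 and 259 TPM. Their part in the levels of Atp6v0e2 and Atp6v1g2 was not tested.

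Subunit a was the exception, with 4 genes measured. The broad genes Atp6v0a1 and Atp6v0a2 together took 61.5% ± 1.55 of its TPM (SD, n = 2), Atp6v0a1 31.8% and 30.8% and Atp6v0a2 30.8% and 29.6%. Tcirg1, the a3 paralog known from osteoclasts and lysosomes, carries a symbol outside the rule and was set beside the members at 28.6 and 34.8 TPM, or 31.0% and 33.6% of a. Atp6v0a4, the kidney paralog, was detected at 5.91 and 6.23 TPM, or 6.41% and 6.01%. Tcirg1 lay between Atp6v0a1 and Atp6v0a2 in replicate 1 and above both in replicate 2. When only coding transcripts were counted, Tcirg1 stood at 11.3 and 11.6 TPM and Atp6v0a4 at 2.44 and 2.48 TPM, and the share of the broad genes was 79.8%. With coding transcripts only, Tcirg1 thus lay below Atp6v0a1 (24.1 and 26.9 TPM) and Atp6v0a2 in both libraries.

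**Figure D3:**
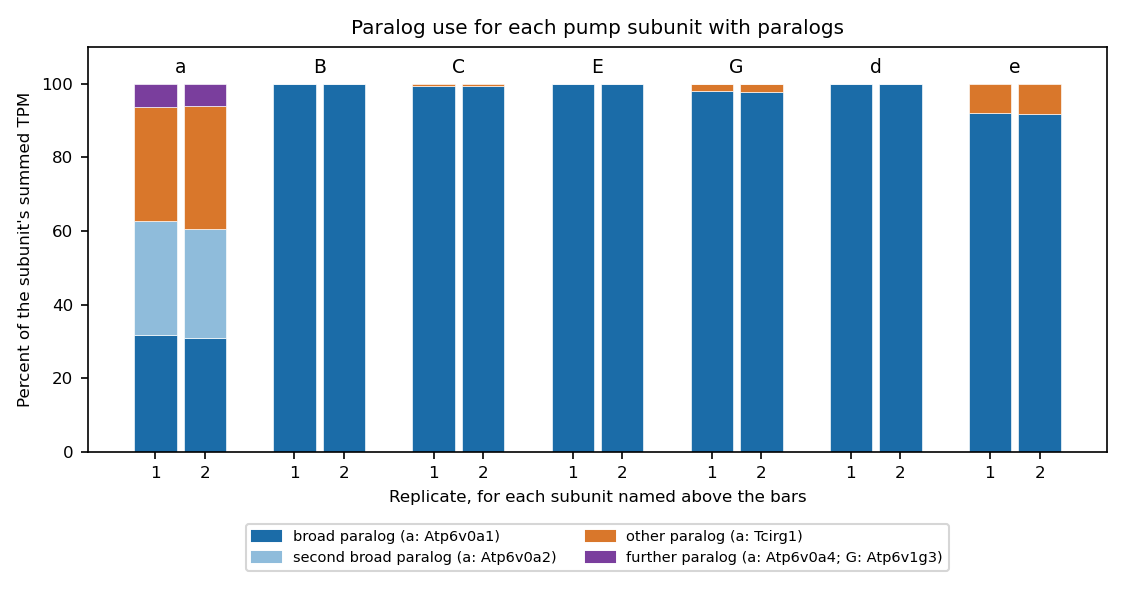
Share of each gene in the summed TPM of its pump subunit, in percent, for the 7 subunits with paralogs, with 1 bar for each replicate. The broad gene fills over 90% of the bar for B, C, E, G, d and e, while a is divided among Atp6v0a1, Atp6v0a2, Tcirg1 and Atp6v0a4.

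The 8 broad cathepsins were all detected. Ctsd, the main aspartic protease of the lysosome, stood highest at 268 and 253 TPM. The cysteine proteases Ctsb, Ctsl and Ctsz followed at 163 and 167 TPM, 148 and 168 TPM, and 148 and 162 TPM. Ctsb lay above Ctsl in replicate 1 and below it in replicate 2, and the values of Ctsl and Ctsz overlapped between the libraries. Ctsa, a serine carboxypeptidase that protects other lysosomal enzymes, stood at 107 and 129.6 TPM. The aminopeptidase gene Ctsh was measured at 59.4 and 52.0 TPM. Ctsf and Ctso were the lowest of the broad cathepsins, at 17.1 and 20.3 TPM and at 14.9 and 14.6 TPM.

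Of the 6 cathepsins with restricted use, 4 were detected. Ctsc, which activates serine proteases of immune granules, stood at 93.4 and 89.6 TPM, close below the accessory subunit gene Atp6ap2. Ctse, an aspartic protease known from the gastric surface epithelium, stood at 54.9 and 47.2 TPM. Ctss, which trims the invariant chain in antigen-presenting cells, was measured at 26.7 and 27.4 TPM. Ctsk, the collagen-degrading protease of osteoclasts, stood at 9.63 and 9.93 TPM, and it neighbours Ctss on chromosome 3 (Ctsk from 95499256 to 95509362, Ctss from 95526786 to 95556403, both on the plus strand). Macrophage markers were all detected, 15 of 15, with a summed level of 631 and 586 TPM and Lyz2, Tyrobp and Fcer1g highest. Their part in the levels of Ctsc, Ctss and Ctsk was not tested.

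The other 2 were at the edge of detection. Ctsg, a serine protease of neutrophil and mast cell granules, stood at 2.40 and 0.82 TPM (67 and 23 counts). Ctsw, known from natural killer and cytotoxic T cells, stood at 1.11 and 0.57 TPM (39 and 20 counts), and it overlaps Fibp on the opposite strand (1822 and 1976 counts). Of 8 T and NK cell markers 3 were detected (Nkg7, Cd3e and Gzma), with a summed level of 5.97 and 6.52 TPM.

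The placental cathepsins form a rodent-specific cluster of 9 genes at chr13:60798250-61570127, on the minus strand. In these libraries 8 of the 9 had 0 counts in both replicates, and Ctsll3 had 1 count in replicate 1 and 0 in replicate 2. A count of 0 allows up to 3 counts, which for these genes corresponds to 0.0406 to 0.0879 TPM in replicate 1 and to 0.0404 to 0.0876 TPM in replicate 2. Such floors and the intervals below cover counting error only, with no spread between pools, and the tables hold no molecular identifiers. None of 6 trophoblast markers was detected, with a summed level of 0.26 and 0.02 TPM and 4 of them at 0 counts in both libraries. Ctsl, the broad relative of these genes on the same chromosome, stood at 148 and 168 TPM.

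Lamp1 and Lamp2, the abundant proteins of the lysosomal membrane, stood at 238 and 262 TPM and at 117 and 118 TPM. Lamp3, known from mature dendritic cells and lung epithelium, stood at 0.18 and 0.03 TPM (18.0 and 3.25 counts). Atp6v1fnb was listed at 0.20 and 0.08 TPM. All members together took 0.423% and 0.427% of the counts on genes.

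Other genes of the pathway were described from lists chosen for their roles. Of 16 pump partners, which include assembly factors, the RAVE-like regulators and chloride transporters that balance charge, all were detected. The highest were Tmem9 at 115 and 129.7 TPM, Rogdi at 43.7 and 47.4 TPM and Ccdc115 at 43.4 and 45.4 TPM. All 25 lysosomal hydrolases were detected, with Psap, the precursor of the saposins, highest at 117 and 127 TPM, followed by Asah1 and Fuca1. Membrane proteins were detected in 11 of 12 cases, led by Cd63 at 684 and 741 TPM, Laptm4a and Laptm4b. All 6 sorting genes were detected, with the mannose 6-phosphate receptor gene M6pr at 99.3 and 97.8 TPM, ahead of Gnptg and Igf2r. The regulators that read the E-box were lower, with Tfe3 at 24.5 and 21.4 TPM, Tfeb at 8.84 and 8.35 TPM, Tfec at 6.05 and 10.7 TPM and Mitf at 1.63 and 1.36 TPM. Of the cystatins, which inhibit cysteine cathepsins, Cst3 stood at 398 and 372 TPM and Cstb at 349.6 and 286 TPM, Cst8 stood at 1.23 and 0.69 TPM, and 2 of 6 were detected.

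Transcript shares were read for the 33 members with at least 100 counts in each library. In 17 of them 1 transcript held 90% or more of the gene's TPM in both libraries, and in 31 the leading transcript was annotated as coding. Lamp2 is known for alternative last exons. Lamp2-202, whose last exon lies at chrX:38419507-38421851, took 59.6% and 57.1%, and Lamp2-201, with its last exon at chrX:38405062-38405571, took 35.6% and 38.0%. Lamp2-203, which ends furthest downstream at chrX:38401357-38402281, took 0.97% and 0.83%. The gene lies on the minus strand, and this order was the same in both pools.

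The largest differences in a transcript share between the libraries were found in 3 genes. Atp6v1g2-201 took 71.1% and 49.0% of its gene, on 131 and 104 counts. Ctse-202, the coding form with 9 exons, took 33.7% and 18.1%, and Ctse-201, with 10 exons, took 64.5% and 78.9%. Ctss-202 took 94.3% and 82.4% against Ctss-201, a form of the same length of 1355 bases. These shares were not tested, and each rests on how the authors' quantification divided reads among overlapping transcripts.

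In some members much of the TPM lay on transcripts annotated as not coding, and these were chosen after their values were seen. In Ctsh the nonsense-mediated decay form Ctsh-202 led with 51.7% and 48.8%, and the coding forms summed to 43.3% and 42.4%. In Atp6v0a4 the retained-intron form Atp6v0a4-206, of 666 bases, took 48.7% and 49.6%, and coding forms 41.2% and 39.9%. That gene overlaps D630045J12Rik on the same strand, which had 933 and 1012 counts. Coding forms took 78.5% and 70.7% in Atp6v1g2, 70.8% and 70.1% in Ctsa, 74.1% and 74.8% in Ctso, and 76.5% and 75.9% in Atp6v0b. In 25 of the 33 genes coding forms held 90% or more in both libraries.

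**Figure D4:**
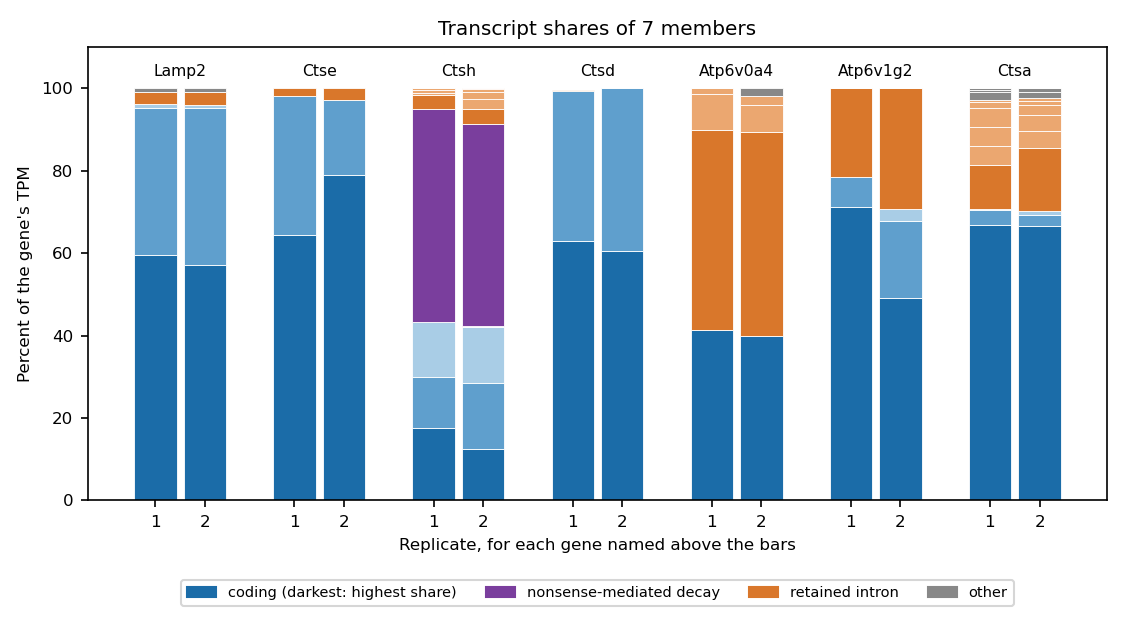
Share of each transcript in the TPM of its gene, in percent, for 7 members, with 1 bar for each replicate and colour for the annotated transcript type. Ctsh and Atp6v0a4 have less than 50% on coding forms in both libraries, and Ctse and Atp6v1g2 differ most between the replicates.

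The 2 pools were compared gene by gene with an exact binomial test (two-sided), which compares these libraries and not conditions. Genes with a summed count of 10 or more entered (20918 genes), and a gene was called at a Benjamini-Hochberg adjusted p below 0.05 and a change of at least 2-fold. Of the 37 members tested, 2 were called lower in replicate 2, where 5.91% of all genes tested were called lower, and 0 were called higher, where the share over all genes was 0.808%. Among the protein-coding genes tested, the type of all members, 2.42% were called lower. At an adjusted p below 0.05 and any fold, 17 of the 37 members passed (10 lower and 7 higher), against 32.0% of all genes. That share is not matched for depth, since 30 of the 37 members had a summed count of 1000 or more. The edgeR exact test with a common biological coefficient of variation of 0.197, estimated from the same 2 libraries that it compares, called 0 members, against 3.28% of all genes, and 2 members had an unadjusted p below 0.05 by it. Directions are relative to TMM library sizes, and with sizes from the spike-ins the median of all genes moved from -0.003 to -0.68 on the log2 scale.

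The 2 called members were both of low count. Ctsg stood at 67 counts in replicate 1 and 23 in replicate 2, a log2 ratio of -1.56 (adjusted p = 1.19e-05 by the exact binomial test, 0.103 by the edgeR exact test). The ratio of replicate 2 to replicate 1 was 0.333, with an exact 95% counting interval of 0.198 to 0.542. Lamp3 stood at 18.0 and 3.25 counts, a log2 ratio of -2.44 (adjusted p = 0.00357 by the exact binomial test, 0.157 by the edgeR exact test), and its ratio was 0.162 with an interval of 0.0305 to 0.554. Ctsw, at 39 and 20 counts, had a log2 ratio of -0.99 with the prior count and was not called, at an adjusted p of 0.0412 by the exact binomial test. Its ratio without the prior count was 0.498, with an interval of 0.275 to 0.875, so it lies at the 2-fold limit itself.

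Among 7 markers of mast cells and neutrophils, 6 were detected, with a summed level of 87.3 and 62.3 TPM, and 2 neutrophil genes were called lower. Elane, the neutrophil elastase gene, stood at 9.75 and 3.34 TPM, a log2 ratio of -1.58 (adjusted p = 3.38e-19 by the exact binomial test, 0.0183 by the edgeR exact test). Prtn3, another neutrophil granule protease, stood at 8.69 and 4.22 TPM, a log2 ratio of -1.16. Mpo, the myeloperoxidase gene, stood at 19.1 and 9.09 TPM, a log2 ratio of -0.95. None of the 4 mast cell genes was called. Cpa3 stood at 25.4 and 24.9 TPM (log2 ratio -0.09), Cma1 at 22.5 and 18.8 TPM (-0.29, adjusted p = 0.00184 by the exact binomial test), Mcpt4 at 35 and 36 counts and Ms4a2 at 38 and 24 counts (-0.69). Liver and erythroid markers were also lower in replicate 2, with summed levels of 2237 and 1090 TPM (5 of 7 called lower) and of 41078 and 23024 TPM (4 of 8 called lower). So were forestomach squamous genes, at 2969 and 1573 TPM (5 of 9 called lower). Among 6 gastric surface mucous genes 3 were called lower and 1 higher, and of 15 macrophage markers 0 were called. The part of any of these cell types in the difference of Ctsg was not tested.

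The well-counted members differed little between the pools. Among members with a summed count of 1000 or more, all 30 had an absolute log2 ratio of at most 0.25, with a median of 0.070 and a maximum of 0.22. Among all 10775 genes at that depth the median was 0.086 and 89.7% lay within 0.25. Atp6v0c, the ring proteolipid gene, had a log2 ratio of -0.10 (adjusted p = 2.94e-07 by the exact binomial test), which shows how small a difference passes at this depth. Among the pump genes the largest difference of a well-counted gene was that of Atp6v0e, at -0.19. The gastric cathepsin Ctse had -0.22 and Ctsh -0.21, while Ctsf had 0.21 and Ctsa 0.19. Spike-in sizes shift every gene alike, and with them none of the 37 members lay above 0, against 18 with TMM sizes.

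**Figure D5:**
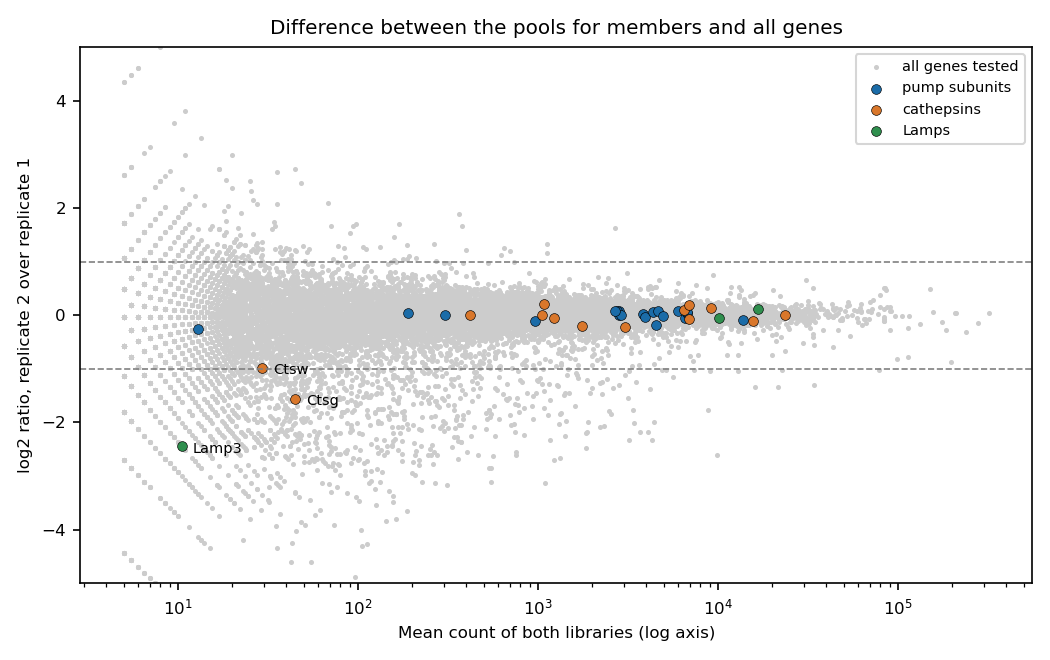
Log2 ratio of replicate 2 over replicate 1 against the mean count of both libraries (log axis), with grey points for all genes tested and coloured points for the members; 67 genes lie outside the plotted range of 5. Members with high counts lie close to 0, and Ctsg and Lamp3 lie below the dashed line at -1.

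In the lists of neighbouring pathways 0 of 16 pump partners, 25 hydrolases, 12 membrane proteins and 6 sorting genes passed both limits in the exact binomial test. The same held for 4 regulators and 5 tested cystatins. The shares called were themselves small: 5.91% of all genes tested were called lower and 0.808% higher. Among protein-coding genes 2.42% were called lower. At an adjusted p below 0.05 and any fold, 8 hydrolases were higher and 1 lower in replicate 2, and of the pump partners 4 were higher and 3 lower. The share at that limit over all genes, in either direction, was 32.0%. Of the 5 cystatins tested 3 were lower and 0 higher, with Cstb at -0.33 on the log2 scale (adjusted p = 1.77e-27 by the exact binomial test, 1.00 by the edgeR exact test). Tfec had the largest ratio of the regulators, at 0.78 on the log2 scale (adjusted p = 1.19e-13 by the exact binomial test, 0.859 by the edgeR exact test).

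The tables held 43209506 and 44257493 counts on genes, with spike-ins at 1.88% and 2.999% of all counts. The label stomach was checked against markers: gastric surface mucous genes were detected in 4 of 6 cases and forestomach squamous genes in 9 of 9. The summed levels of the first list were 372 and 199 TPM, and those of the second 2969 and 1573 TPM. Ctse, which is known from the gastric surface cells, had a log2 ratio of -0.22 between the pools, while of that cell type's markers Tff1 had -0.44, Tff2 -0.46, Psca -2.07, Gkn1 -1.76, Gkn2 -1.07 and Muc5ac 1.21. Their part in the level of Ctse was not tested. Liver, exocrine pancreas and erythroid markers were also detected in full (7 of 7, 6 of 6 and 8 of 8), the pancreas list with a summed level of 6509 and 8792 TPM, and the part of those cells in the members' levels was not tested. Nothing in the labels says more about the replicates than that they are biological, and the p-values of the binomial test hold counting error only, with no spread between pools.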

How the data were processed

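Per the labels, total RNA above 200 nucleotides was taken from pooled stomachs; 10 ng was used per library, and ERCC RNAs were added. The authors deposited gene and transcript tables based on mm10 and annotation M4, as a text file beside them states. The aligner, quantifier, versions and strand setting are not given in the sources used here. Per the file headers, the deposited values are expected counts, TPM and FPKM with posterior means, a posterior SD of the count, and each transcript's percent of its gene. The authors' TPM includes the spike-ins in its total.

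Symbols, types and coordinates came from GENCODE M21, matched for 42462 of 43346 genes (98.0%). Broad and restricted classes follow textbook use. The members and the gene lists were chosen with earlier results of these data known. Expected counts were rounded for tests. Library sizes excluded spike-ins and came from TMM (edgeR 4.0.16, R 4.3.3). With 1 group no quasi-likelihood contrast could be fitted, so each gene was compared by the exact binomial test (SciPy 1.17.1) with a prior count of 0.5 in log2 ratios. The code was tried on simulated counts that held counting error only, so that trial says nothing about spread between pools. Every member, the 3 highest genes of each list and called list genes could be named. Mcpt4, Ms4a2, Dcstamp, Ocstamp, Calcr, Oscar, Foxi1, Aqp6, Slc26a4 and Mitf were named after their values were seen. Alternatives covered detection limits, units, DESeq2 1.42.0 size factors, library totals, spike-in sizes, count minimums, the edgeR exact test and each library left out, and coding transcripts only, which was added after seeing the data. RefSeq promoters were on GRCm38.p6.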

Additional observations from a re-analysis of the deposited data

Results flagged for a closer look

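Outside the rule, reads were also assigned to Atp6v0c-ps2, a processed pseudogene of the ring proteolipid gene on chromosome 6 (chr6:37806086-37806550, plus strand). It held 418.67 expected counts in replicate 1 and 102.55 in replicate 2, above the 3 counts that a count of 0 allows. Its level was 37.0 and 9.04 TPM, a log2 ratio of -2.06 (adjusted p = 1.50e-46 by the exact binomial test, 0.000319 by the edgeR exact test). The posterior SD of its count was 23.6 and 14.9, the same as for Atp6v0c, and reads that match both a gene and its copy cannot be assigned with certainty. Of 1304 processed pseudogenes tested, 53.3% were called lower in replicate 2, against 2.42% of the protein-coding genes tested.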

How the results depend on the processing

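Over detection limits, units, transcript sums and each library left out, 33 to 35 members were detected, against 33 in the report. The members called numbered 2 under DESeq2 size factors, library totals, a count minimum of 1, transcript sums and whole counts only, but these were Ctsg and Ctsw under the last. They numbered 3 with spike-in sizes and with a fold minimum of 1.5, 1 at a count minimum of 50, at which Lamp3 was not tested, and 0 by the edgeR exact test. Spike-in sizes shift all genes alike, by a median of -0.68, so Ctsa stood at -0.49 and Ctsf at -0.47 on the log2 scale and 0 of 37 members lay above 0. CPM without length correction gave broad shares of 73.1% for a, 99.6% for C, 97.3% for G and 82.4% for e. Posterior means gave 99.97% for B, 98.5% for C, 97.7% for G and 99.7% for d. Coding transcripts gave 79.8% for a, 99.7% for C and 98.4% for G. The CPM shares leave out the length correction, and the coding shares leave out forms annotated as not coding. The cause of the changes under posterior means was not tested. Members at 0 counts are limited by depth. No paired analysis was possible because the series has 1 group.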
